A study of Homo sapiens with 24 samples.

Results

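The circadian clock genes described here are PER1, PER2, PER3, CRY1, CRY2, NR1D1, NR1D2, DBP, TEF and CLOCK. They were found by symbol through the unversioned Ensembl identifier of each row of the gene count table, and are 10 of its 60668 rows. All 10 passed the filter on low counts. The counts come from poly(A)-selected RNA of 24 three-dimensional cultures on Matrigel, a basement membrane extract. Cells were MCF-10A, an immortalised and non-tumorigenic human mammary epithelial line (the parental line), and MCF-10A MYC-ER, which carries the transcription factor MYC joined to a domain of the oestrogen receptor that binds hormone. The fusion is held inactive until 4-hydroxytamoxifen (4-OHT) binds it. Each line was grown with 1 µM 4-OHT for the last 0, 8, 24 or 48 h before collection, with 3 replicates in each of the 8 groups. All cultures were harvested together on day 5, and all had their medium replaced at 72 h. The groups therefore differ in time with the drug and not in the hour of harvest. The parental line received the same 4-OHT without the fusion. The promoter that drives the fusion, whether the MYC-ER line is 1 clone, whether 0 h wells received the solvent alone, and whether replicates came from separate cultures beyond separate wells are not given in the sources used here. Changes against 0 h, in either line, therefore hold any effect of handling at the time of addition, which cannot be told apart from that of 4-OHT. The p-values then measure the spread between these wells.

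The mammalian clock is a feedback loop of transcription. CLOCK pairs with BMAL1 and activates genes through the E-box, CACGTG, among them the PER and CRY genes. PER and CRY proteins then enter the nucleus and repress CLOCK and BMAL1. NR1D1 and NR1D2 encode REV-ERB alpha and REV-ERB beta, nuclear receptors that repress BMAL1 and other genes through sites containing AGGTCA. DBP and TEF are transcription factors that activate genes through the D-box, TTATGTAA. Most cell types, mammary epithelium among them, hold this loop. Cells in an untreated dish drift out of step, so that RNA from such a culture is an average over many phases. How far the cells were in step here, after the medium change at 72 h, was not tested. MYC with its partner MAX also binds CACGTG.

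The proximal promoters are shown first because E-boxes, D-boxes and REV-ERB sites define the loop. RefSeq windows (GRCh38.p14) from 250 bases before to 50 after each annotated start were found for all 10 genes, 15 windows in all, and were searched on both strands for 4 motifs. The E-box, written CACGTG, was present in 4 of the 15 windows (3 genes), beside 7.26% of all 35116 such windows. Its variant CACGTT was present in 5 windows (5 genes), beside 5.34%. The REV-ERB site was searched as AGGTCA and was present in 3 windows (2 genes), beside 13.8%. The D-box was searched as TTATGTAA and was present in 2 windows (2 genes), beside 0.886%. No match overlapped another, and every match lay before the start. The stretches below carry the matches of PER1, PER2, PER3, CRY1, NR1D1, NR1D2 and TEF in capitals, read 5′ to 3′ on the strand of the gene, and a match to the other strand appears as its reverse complement.
PER1 (chr17:8152523-8152597, minus strand; E-box, then REV-ERB site): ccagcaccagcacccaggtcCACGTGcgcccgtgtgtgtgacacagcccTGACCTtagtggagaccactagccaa
PER2 (chr2:238288782-238288827, minus strand; E-box variant): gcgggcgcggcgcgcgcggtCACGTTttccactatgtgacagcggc
PER3 (chr1:7784094-7784141, plus strand; D-box): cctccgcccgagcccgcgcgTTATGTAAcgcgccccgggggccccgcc
CRY1 (chr12:107093613-107093658, minus strand; E-box variant): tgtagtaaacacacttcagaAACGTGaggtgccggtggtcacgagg
NR1D1 (chr17:40100732-40100777, minus strand; E-box variant): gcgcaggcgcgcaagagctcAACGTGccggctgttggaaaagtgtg
NR1D2, downstream start (chr3:23945907-23945991, plus strand; D-box, then E-box): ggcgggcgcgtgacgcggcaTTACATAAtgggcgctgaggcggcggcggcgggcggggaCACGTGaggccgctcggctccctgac
NR1D2, downstream start (chr3:23945996-23946041, plus strand; a further E-box): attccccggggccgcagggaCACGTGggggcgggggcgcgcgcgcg
TEF, upstream start (chr22:41367240-41367285, plus strand; E-box): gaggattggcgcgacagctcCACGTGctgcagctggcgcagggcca
TEF, downstream start (chr22:41381729-41381774, plus strand; E-box): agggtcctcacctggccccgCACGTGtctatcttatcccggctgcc
The 3 genes with CACGTG in a window (PER1, NR1D2 and TEF) did not move together in MYC-ER cells after 8 h, when TEF rose, NR1D2 fell and PER1 did not pass the test (-0.09). The 2 genes with TTATGTAA, PER3 and NR1D2, moved in opposite directions at that time. CRY2 held AGGTCA and the E-box variant, CLOCK held the variant before its second start, and the DBP window held none of these letters. A match is a description of the letters and was not tested for binding.

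Library totals ran from 136860029 to 182438505 counts, and the members held from 191 counts (DBP, lowest library) to 36889 (PER1, highest library). Levels are in CPM, that is, each count as a share of its library total after TMM scaling, and changes are on the log2 scale with the standard error (SE) of the fit. A change is called at an adjusted p under 0.05 by edgeR's quasi-likelihood test. No row of the table is the fusion itself, and reads of its MYC part cannot be told apart from those of MYC. Before 4-OHT the MYC row of the MYC-ER line averaged 387 ± 8.02 CPM (SD, n = 3), and it averaged 795 ± 1.77 after 8 h, 321 ± 8.84 after 24 h and 248 ± 4.72 after 48 h, against 463 to 532 CPM in the parental groups. ESR1, the oestrogen receptor gene, reached no more than 0.557 CPM in any library. All 8 epithelial markers looked at were present in all 8 groups, at differing levels. Their summed level was 9520 to 14982 CPM in MYC-ER libraries and 16565 to 28081 in parental ones. EPCAM ran from 1.73 to 77.7 CPM over the libraries, KRT14 from 603 to 10876 and KRT17 from 313 to 3442. CDH1 ran from 109 to 227 CPM and TP63 from 76.8 to 169. Of 9 markers of leukocytes, endothelium and fibroblasts, CD3E and CDH5 had no counts, PTPRC had 2, COL1A2 had 12 and VWF had 143 over all libraries. PECAM1 had 3048 and PDGFRB 3672 counts, at most 2.32 and 1.65 CPM in a library. The leukocyte marker CD68 ran from 4.20 to 23.6 CPM. The summed level of the 9 was 172 to 176 CPM in MYC-ER cells at 0 h, 69.3 to 75.5 after 8 h, 28.97 to 31.5 after 24 h and 52.3 to 56.0 after 48 h. In parental cells it was 36.3 to 49.8 CPM. The fibroblast marker DCN made up 51.1% to 89.9% of the sum, depending on the group. The share of counts from mitochondrial genes was 9.24% to 9.71% in MYC-ER cells at 0 h, 5.61% to 6.78% with 4-OHT, 3.86% to 7.28% in parental cells at 0 h and 5.51% to 7.78% with 4-OHT. The part of these differences in the results below was not tested. In bulk RNA, a change in each cell and a change in the share of cells that express a gene cannot be told apart.

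In MYC-ER cells the clock genes changed at every time, but not in 1 direction. At 8 h, 6 of the 10 were higher than at 0 h (CRY1, NR1D1, PER3, PER2, TEF and CLOCK), against 32.2% of the 22158 genes tested, and 2 were lower (NR1D2 and DBP), against 35.4%. At 24 h, 3 were higher (PER3, NR1D1 and CRY1), against 30.4% of all genes, and 6 were lower (CRY2, PER2, NR1D2, TEF, DBP and PER1), against 31.2%. At 48 h, 4 were higher (PER3, NR1D1, DBP and PER2), against 23.4%, and 2 were lower (CRY1 and CRY2), against 20.7%. The median change of the 10 was 0.47 after 8 h, -0.34 after 24 h and 0.00 after 48 h, beside -0.10, -0.02 and 0.03 over all genes tested. NR1D1 and PER3 were called higher at all 3 times, no member was called lower at all 3, and CRY1, DBP, PER2 and TEF were called higher at one time and lower at another.

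**Figure D1:**
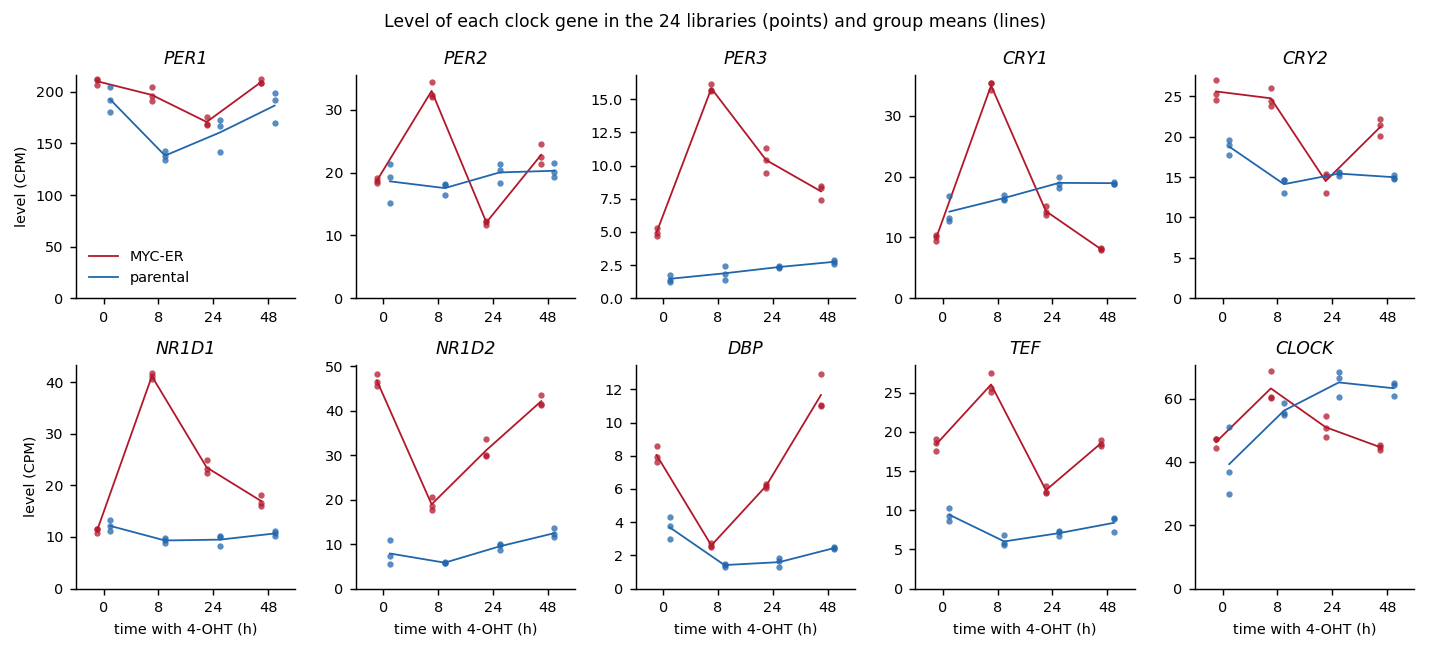
Level (CPM, linear axis from 0) of each clock gene by time with 4-OHT (hours, groups evenly spaced and not to scale). Points are the 24 libraries and lines join group means. MYC-ER cells peaked after 8 h for PER2, PER3, CRY1, NR1D1, TEF and CLOCK and reached their lowest level there for NR1D2 and DBP, while parental levels of PER2, PER3, NR1D1, NR1D2 and TEF stayed within a narrower range.

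The intervals between treated times show the turn. From 8 to 24 h, 8 members fell, against 27.1% of all genes, and 2 rose (DBP and NR1D2), against 28.4%, so all 10 moved. From 24 to 48 h, 6 rose (PER1, PER2, CRY2, NR1D2, DBP and TEF), against 28.2%, and 3 fell (CRY1, NR1D1 and PER3), against 25.5%. The falls of PER1 (-0.21, SE 0.07) and CLOCK (-0.31, SE 0.11) from 8 to 24 h did not pass the test when counts were scaled by library size alone (PER1 0.00, adjusted p 0.993; CLOCK -0.11, adjusted p 0.499) or by the upper quartile (-0.10, adjusted p 0.201, and -0.21, adjusted p 0.0996). With each library's trend by GC content removed, the rise of PER1 from 24 to 48 h went from 0.30 to 0.13 and lost its call (adjusted p 0.0508), and a fall of CLOCK was called (-0.17, adjusted p 0.0339). A fit of only the groups compared also called CLOCK lower from 24 to 48 h (-0.23, adjusted p 0.000693). The fall of CLOCK from 8 to 24 h also lost its call without MYC-ER 8 h replicate 2 (-0.25, adjusted p 0.111), 24 h replicate 2 (-0.27, adjusted p 0.0937) or 24 h replicate 3 (-0.31, adjusted p 0.0611). That of PER1 lost its call without 8 h replicate 3 (-0.18, adjusted p 0.0504). Both falls from 8 to 24 h were called with the GC trend removed (CLOCK -0.45, adjusted p 6.47e-06, and PER1 -0.19, adjusted p 0.00568).

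PER1, PER2 and PER3 encode the period proteins, which carry CRY into the nucleus and whose breakdown sets the length of the cycle. They are annotated at chr17:8140472-8156506 (minus strand), chr2:238244038-238290102 (minus) and chr1:7784320-7845177 (plus) in GRCh38. PER2 stood at 18.6, 18.4 and 19.1 CPM in the MYC-ER libraries at 0 h. It was 32.4, 34.4 and 32.1 CPM after 8 h, 11.7, 12.1 and 12.4 after 24 h, and 21.4, 22.5 and 24.6 after 48 h. No library of one time overlapped those of another, so PER2 rose, fell below its start and came back above it. The changes against 0 h were 0.82 (SE 0.09, adjusted p 6.24e-08), -0.63 (SE 0.09, adjusted p 3.53e-06) and 0.29 (SE 0.09, adjusted p 0.0137). The last did not pass without MYC-ER 48 h replicate 3, the highest of its group (0.23, adjusted p 0.0818), or with the GC trend removed (0.20, adjusted p 0.0942). Parental PER2 lay between 15.1 and 21.5 CPM in all 12 libraries and no change was called at any time. The MYC-ER change exceeded the parental one by 0.90 (SE 0.13) after 8 h and was 0.74 below it after 24 h (-0.74, SE 0.13, adjusted p 4.98e-05).

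PER3 had the widest span of the 10, with a 10.8-fold difference between its highest and lowest group mean. It was 5.28, 4.92 and 4.69 CPM in MYC-ER cells at 0 h, 15.7, 16.1 and 15.6 after 8 h, 11.3, 10.4 and 9.48 after 24 h, and 7.42, 8.34 and 8.43 after 48 h. All treated libraries lay above all untreated ones, highest after 8 h and lower at each later time. The changes were 1.67 (SE 0.14, adjusted p 4.56e-10), 1.07 (SE 0.14, adjusted p 5.21e-07) and 0.70 (SE 0.14, adjusted p 0.000218). The fall from 24 to 48 h (-0.37, SE 0.13, adjusted p 0.0247) did not pass without MYC-ER 24 h replicate 1 (-0.31, adjusted p 0.102), 24 h replicate 2 (-0.37, adjusted p 0.0527) or 48 h replicate 1 (-0.31, adjusted p 0.0998), under library size alone (-0.32, adjusted p 0.0651) or under upper-quartile scaling (-0.29, adjusted p 0.0658). Parental PER3 was low in all groups, from 1.27 to 2.92 CPM. It was 2.31, 2.37 and 2.41 CPM after 24 h and 2.92, 2.58 and 2.76 after 48 h, against 1.39, 1.76 and 1.27 at 0 h, with changes of 0.68 (SE 0.14, adjusted p 0.000527) and 0.90 (SE 0.14, adjusted p 5.01e-05). The 2 lines differed in the change after 8 h (1.31, SE 0.20, adjusted p 6.26e-06). At 24 and 48 h the difference of changes was 0.39 (SE 0.20, adjusted p 0.102) and -0.20 (SE 0.20, adjusted p 0.435), which did not pass the test.

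PER1 was the most abundant of the 10 and changed least, with a 1.52-fold difference between highest and lowest group mean. MYC-ER libraries held 213, 207 and 211 CPM at 0 h, 191, 196 and 204 after 8 h, 167, 176 and 169 after 24 h, and 213, 208 and 208 after 48 h. The 24 h libraries lay below all others of the line (-0.30, SE 0.07, adjusted p 0.000404 against 0 h). The 8 h change (-0.09, adjusted p 0.208) was called lower under library size alone (-0.18, adjusted p 0.00706) and upper-quartile scaling (-0.23, adjusted p 0.0034). At 48 h its direction depended on the scaling, with 0.16 (adjusted p 0.0292) under library size alone and no call under the other settings. Parental PER1 was 192, 181 and 205 CPM at 0 h and 138, 142 and 134 after 8 h, a fall without overlap (-0.48, SE 0.07, adjusted p 2.1e-05). With the GC trend removed this fall was -0.21 (adjusted p 0.00879). The MYC-ER change after 8 h was less negative by 0.38 (SE 0.09, adjusted p 0.00119), or by 0.20 with the GC trend removed (adjusted p 0.0348). By mean level the MYC-ER groups at 0 and 48 h ranked highest and overlapped each other. Below them, from MYC-ER cells after 8 h down to parental cells after 8 h, each neighbouring pair of groups overlapped.

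CRY1 and CRY2 encode the cryptochromes, the direct repressors of CLOCK and BMAL1. They lie at chr12:106991364-107093829 (minus strand) and chr11:45847118-45883248 (plus strand). CRY1 was 10.5, 9.37 and 10.1 CPM in MYC-ER cells at 0 h and 34.2, 35.4 and 35.3 after 8 h. It was 15.1, 14.2 and 13.7 CPM after 24 h and 8.34, 8.08 and 7.92 after 48 h. The 8 h libraries stood above every other library of the series, and the 48 h libraries below every other one. The changes were 1.81 (SE 0.08, adjusted p 8.95e-15), 0.52 (SE 0.08, adjusted p 4.39e-06) and -0.30 (SE 0.08, adjusted p 0.00353), the last of which was not called under library size alone (-0.14, adjusted p 0.227). Parental CRY1 moved less, from 13.2, 16.8 and 12.7 CPM at 0 h to 16.3, 16.9 and 16.2 after 8 h, 18.8, 18.2 and 19.9 after 24 h and 18.7, 19.2 and 18.8 after 48 h. Its changes were 0.21 (SE 0.08, adjusted p 0.0424), 0.41 (SE 0.08) and 0.41 (SE 0.08), and none of them was called with the GC trend removed. The call after 8 h was also lost without any 1 of 5 libraries, parental 0 h replicates 1 and 3 and the 3 parental 8 h libraries (0.14 to 0.23, adjusted p 0.0709 to 0.212), under upper-quartile scaling (0.17, adjusted p 0.0638) and without a filter on low counts (0.21, adjusted p 0.0635). The change after 8 h was larger in MYC-ER cells by 1.60 (SE 0.11, adjusted p 4.75e-11), and that after 48 h was lower by 0.71 (-0.71, SE 0.11, adjusted p 2.07e-05).

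CRY2 followed another course. It was 27.0, 25.3 and 24.5 CPM in MYC-ER cells at 0 h and 24.4, 23.7 and 26.1 after 8 h, with overlapping libraries and no call, though upper-quartile scaling called it lower (-0.19, adjusted p 0.021). At 24 h it was 13.0, 15.4 and 15.1 CPM, below all libraries of the other times in that line (-0.82, SE 0.07, adjusted p 5.25e-10). At 48 h it was 22.1, 20.1 and 21.4 CPM (-0.27, SE 0.07, adjusted p 0.00218), a call that did not pass under library size alone (-0.11, adjusted p 0.284). Parental CRY2 went from 19.6, 19.0 and 17.7 CPM at 0 h to 13.1 to 15.6 in the 9 treated libraries, with changes of -0.41, -0.28 and -0.32 (SE 0.07 each). The 24 and 48 h calls were lost with the GC trend removed (-0.05, adjusted p 0.616, and -0.13, adjusted p 0.155). Both were also lost in a fit of only the groups compared (adjusted p 0.0540 and 0.0542). In the order of means, parental cells after 24 h, parental cells after 48 h, MYC-ER cells after 24 h and parental cells after 8 h came last, and each overlapped the next. The parental 8 h libraries (13.1 to 14.7 CPM) nevertheless all lay below the parental 24 h (15.1 to 15.6) and 48 h (14.7 to 15.3) ones. The difference of changes was 0.36 (SE 0.09, adjusted p 0.00247) after 8 h and -0.54 (SE 0.09, adjusted p 5.07e-05) after 24 h, and the first was not called under library size alone (0.24, adjusted p 0.0702).

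Within each library, the ratio of CRY1 to CRY2 per kilobase of exon turned over in MYC-ER cells. Exon length here is that of all annotated exons merged (5062 bases for CRY1, 6200 for CRY2). It can exceed the length of the transcripts made, which was not tested. The ratio was 0.454 to 0.504 at 0 h, 1.66 to 1.83 after 8 h, 1.11 to 1.42 after 24 h and 0.452 to 0.493 after 48 h. By this measure CRY2 was the more abundant cryptochrome RNA before treatment and again after 48 h, and CRY1 after 8 and 24 h. In parental cells the ratio was 0.828 to 1.08 at 0 h and 1.37 to 1.61 at the treated times.

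The REV-ERB genes moved in opposite directions in MYC-ER cells. NR1D1 (chr17:40092787-40100725, minus strand) was 10.7, 11.5 and 11.5 CPM in MYC-ER cells at 0 h, 40.6, 41.1 and 41.7 after 8 h, 23.1, 24.9 and 22.4 after 24 h, and 16.6, 18.1 and 16.0 after 48 h. Every treated library lay above the untreated ones, with changes of 1.87 (SE 0.08, adjusted p 7.93e-15), 1.06 (SE 0.08, adjusted p 1.19e-10) and 0.59 (SE 0.08, adjusted p 2.45e-06). Parental NR1D1 was 12.04, 11.1 and 13.3 CPM at 0 h and 8.23 to 11.1 in the treated libraries. Its changes there were -0.38 (SE 0.08, adjusted p 0.00112) after 8 h, -0.36 (SE 0.08, adjusted p 0.000987) after 24 h and -0.19 (SE 0.08, adjusted p 0.0682) after 48 h. The 8 and 24 h calls were lost with the GC trend removed (-0.17, adjusted p 0.0809, and -0.06, adjusted p 0.584) and in a fit of only the groups compared (adjusted p 0.0656 and 0.0648). The 2 lines differed in the change at each time, by 2.25 (SE 0.11, adjusted p 3.18e-13), 1.42 (SE 0.11, adjusted p 5.72e-10) and 0.78 (SE 0.11, adjusted p 9.08e-06), the last of which was 0.44 with the GC trend removed (adjusted p 0.000846). NR1D1 overlaps THRA, a thyroid hormone receptor gene on the opposite strand, and whether the counting used strand is not given in the sources used here. THRA fell by 0.91 and 0.94 in MYC-ER cells after 8 and 24 h, while NR1D1 rose. In its other called changes against 0 h THRA moved the way of NR1D1, higher in MYC-ER cells after 48 h (0.22) and lower in parental cells after 8 h (-0.47) and 24 h (-0.48), and the part of its reads in the NR1D1 counts was not tested.

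NR1D2 (chr3:23945260-23980618, plus strand) was the member with the largest difference between the lines before 4-OHT. It was 45.7, 48.2 and 46.6 CPM in MYC-ER cells at 0 h against 7.36, 10.8 and 5.46 CPM in parental cells (2.57, SE 0.15, adjusted p 1.87e-12). In MYC-ER cells it was 18.7, 20.6 and 17.6 CPM after 8 h, 33.6, 29.9 and 29.96 after 24 h and 41.3, 43.6 and 41.6 after 48 h. It fell after 8 h (-1.30, SE 0.14, adjusted p 4.61e-08), was still lower after 24 h (-0.59, SE 0.14, adjusted p 0.00103), and after 48 h lay below the untreated libraries without passing the test (-0.15, SE 0.14, adjusted p 0.418), a change that a fit of only the groups compared called (-0.14, adjusted p 0.00386). All 12 MYC-ER libraries stayed above all 12 parental ones. Parental NR1D2 was 5.69, 5.96 and 5.82 CPM after 8 h, 9.79, 8.62 and 10.1 after 24 h and 12.2, 11.6 and 13.6 after 48 h, with changes of -0.44 (SE 0.15, adjusted p 0.0269), 0.27 (SE 0.14, adjusted p 0.152) and 0.66 (SE 0.14, adjusted p 0.000943). The first 2 turned on parental 0 h replicate 2, without which they were -0.14 (adjusted p 0.301) and 0.57 (adjusted p 7.19e-05). The first was also lost without any 1 of the 3 parental 8 h libraries (-0.46 to -0.41, adjusted p 0.0554 to 0.0947). With the GC trend removed the 3 parental changes were -0.64 (adjusted p 0.000118), -0.02 (adjusted p 0.886) and 0.35 (adjusted p 0.0106). A fit of only the groups compared lost the 8 h call (adjusted p 0.222) and the 48 h call (adjusted p 0.0662). The difference of changes was -0.87 (SE 0.20), -0.85 (SE 0.20) and -0.81 (SE 0.20) after 8, 24 and 48 h, called at each time. NKIRAS1 overlaps NR1D2 on the opposite strand and changed by -0.08, -0.78 and -0.86 in MYC-ER cells at these times. Its own difference of changes was -0.30, -0.85 and -0.75, of the same sign as that of NR1D2.

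The ratio of NR1D1 to NR1D2 per kilobase of exon put both movements together. In MYC-ER libraries it was 0.493 to 0.519 at 0 h, 4.20 to 4.97 after 8 h, 1.44 to 1.75 after 24 h and 0.810 to 0.872 after 48 h. By this measure, with merged exons of 2772 bases for NR1D1 and 5820 for NR1D2, NR1D2 was the more abundant REV-ERB RNA at 0 and 48 h. NR1D1 was the more abundant after 8 and 24 h. In parental libraries NR1D1 was the more abundant throughout, with ratios of 2.15 to 5.11 at 0 h, 3.23 to 3.45 after 8 h, 2.004 to 2.20 after 24 h and 1.71 to 1.93 after 48 h.

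**Figure D2:**
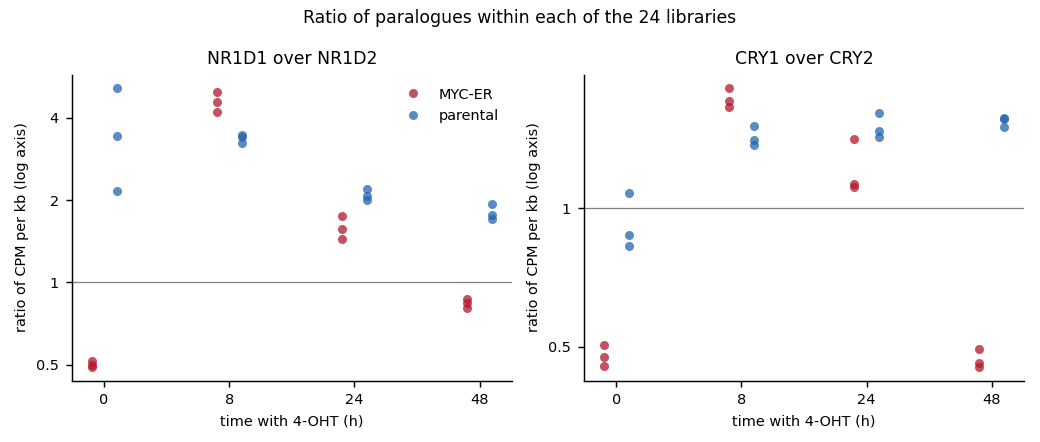
Ratio of NR1D1 to NR1D2 (left) and of CRY1 to CRY2 (right) in CPM per kilobase of exon, on a log axis, in each of the 24 libraries by time with 4-OHT (hours, evenly spaced). The grey line marks a ratio of 1. MYC-ER libraries lie above it in both plots after 8 and 24 h and below it at 0 and 48 h.

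DBP and TEF encode D-box activators, and DBP is among the most strongly cycling output genes of the clock in many tissues. DBP (chr19:48630030-48637438, minus strand) was 8.60, 7.62 and 7.91 CPM in MYC-ER cells at 0 h and 2.73, 2.52 and 2.54 after 8 h. It was 6.16, 6.08 and 6.30 CPM after 24 h and 11.1, 12.9 and 10.995 after 48 h. The 4 times did not overlap, and DBP fell first (-1.63, SE 0.13, adjusted p 1.6e-10), was still lower after 24 h (-0.38, SE 0.12, adjusted p 0.0101) and ended above its start (0.54, SE 0.12, adjusted p 0.00107). The 24 h call did not pass under library size alone (-0.27, adjusted p 0.0567). Parental DBP fell as well, from 3.77, 2.96 and 4.32 CPM at 0 h to 1.31, 1.501 and 1.43 after 8 h, 1.82, 1.28 and 1.68 after 24 h and 2.50, 2.37 and 2.44 after 48 h. Its changes were -1.38 (SE 0.13, adjusted p 2.39e-07), -1.21 (SE 0.13, adjusted p 6.36e-07) and -0.60 (SE 0.12, adjusted p 0.000643). At 8 h the difference between the changes of the lines was -0.25 (SE 0.18, adjusted p 0.248), and after 24 and 48 h it was 0.83 (SE 0.18, adjusted p 0.000372) and 1.13 (SE 0.17, adjusted p 1.99e-05). SPHK2 overlaps DBP on the opposite strand. It changed by -0.15, 0.19 and 0.36 in MYC-ER cells and by -0.40, -0.59 and -0.59 in parental cells after 8, 24 and 48 h. Its difference of changes was 0.25, 0.78 and 0.95, near that of DBP after 24 and 48 h, and the part of its reads in the DBP counts was not tested.

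TEF (chr22:41367333-41399326, plus strand) went the other way after 8 h in MYC-ER cells. It was 17.6, 18.6 and 19.1 CPM at 0 h, 27.5, 25.1 and 25.6 after 8 h, 13.1, 12.4 and 12.2 after 24 h and 18.9, 18.2 and 18.4 after 48 h. TEF rose without overlap after 8 h (0.50, SE 0.09, adjusted p 2.77e-05), lay below its start after 24 h (-0.55, SE 0.09, adjusted p 9.49e-06) and overlapped it after 48 h (0.01, SE 0.09). Parental TEF was 10.3, 9.31 and 8.64 CPM at 0 h, 5.76, 6.79 and 5.50 after 8 h, 7.20, 6.66 and 7.37 after 24 h and 7.23, 9.03 and 8.91 after 48 h. It fell after 8 h (-0.65, SE 0.09, adjusted p 2.19e-05) and 24 h (-0.41, SE 0.09, adjusted p 0.000686), the latter not called with the GC trend removed (-0.19, adjusted p 0.109). The lines differed in the change after 8 h by 1.15 (SE 0.12, adjusted p 6.42e-08). All MYC-ER libraries lay above all parental ones.

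CLOCK, the only member that encodes an activator of the E-box loop, lies at chr4:55427903-55547138 (minus strand). MYC-ER libraries held 47.2, 47.4 and 44.3 CPM at 0 h, 60.6, 68.8 and 60.3 after 8 h, 54.4, 48.0 and 50.6 after 24 h and 43.9, 45.4 and 44.6 after 48 h. The 8 h libraries were the highest (0.45, SE 0.11, adjusted p 0.00151), and no call was made after 24 h (0.14, SE 0.11) or 48 h (-0.05, SE 0.11), though a fit of only the groups compared called the former (0.18, adjusted p 0.0061). Parental CLOCK was 36.9, 50.9 and 30.01 CPM at 0 h, with replicate 2 high, then 55.4, 58.6 and 54.7 after 8 h, 66.5, 60.4 and 68.4 after 24 h and 64.8, 60.7 and 64.3 after 48 h. Its changes were 0.52, 0.73 and 0.69 (SE 0.11 each), called at each time, and 0.28, 0.40 and 0.33 with the GC trend removed. The 8 h call was lost in a fit of only the groups compared (0.52, adjusted p 0.0980). The difference of changes was -0.59 (SE 0.16, adjusted p 0.00373) after 24 h and -0.74 (SE 0.16, adjusted p 0.00075) after 48 h, or -0.32 and -0.42 with the GC trend removed. At 8 h it was -0.07 (SE 0.16), and it turned to 0.25 (adjusted p 0.0325) with the GC trend removed and to -0.30 (adjusted p 0.017) without parental 0 h replicate 2. TMEM165 overlaps CLOCK on the opposite strand and fell in MYC-ER cells at all 3 times (-0.25, -0.93 and -0.59). In parental cells it was called higher at all 3 (0.16, 0.23 and 0.29), as CLOCK was, and its difference of changes was -0.41, -1.16 and -0.87. The part of its reads in the CLOCK counts was not tested.

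**Figure D3:**
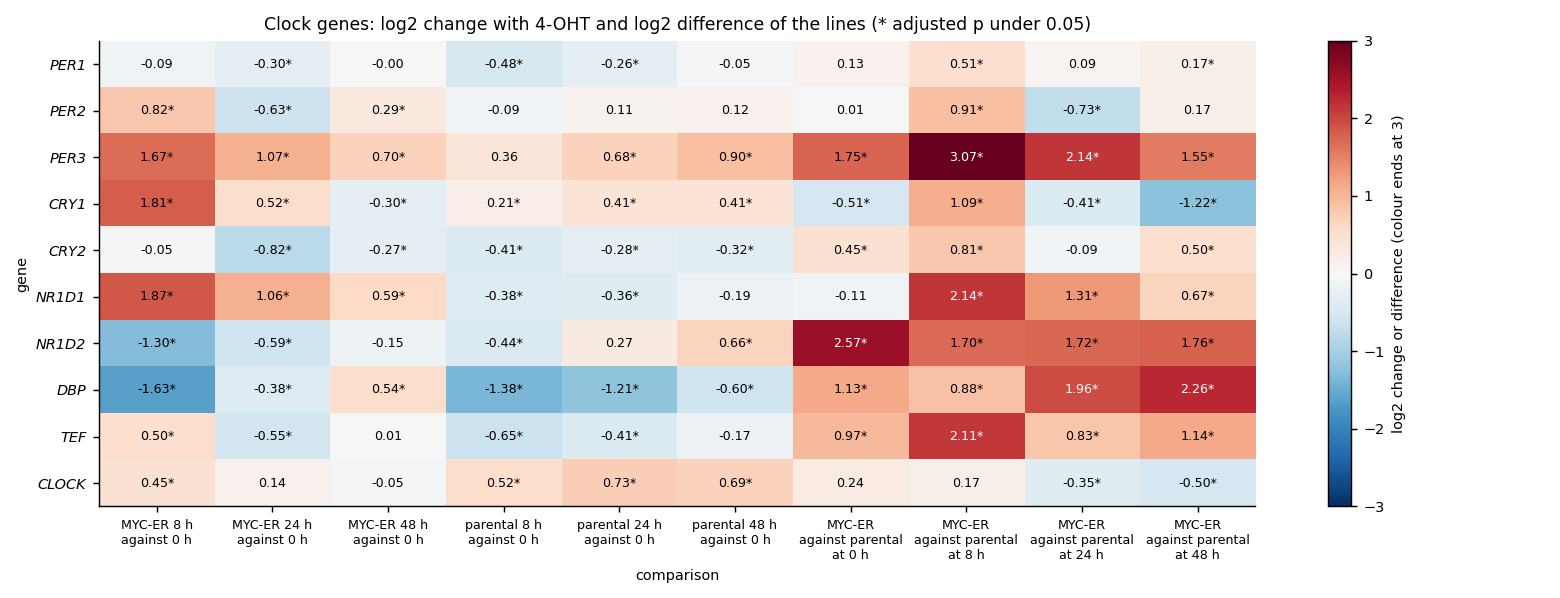
Log2 change of each clock gene (rows) with 4-OHT in each line and log2 difference of the lines at each time (columns), with asterisks at an adjusted p under 0.05. Red is higher and blue lower, and the colour ends at 3. The first 3 columns hold both colours, and PER2 and TEF turn from red to blue between 8 and 24 h. The last 4 columns are mostly red, with PER3, NR1D2, DBP and TEF higher in MYC-ER cells at every time.

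In parental cells, which lack the fusion, clock genes also changed with 4-OHT, and fewer of all genes were called. At 8 h, 2 members were higher (CLOCK and CRY1), against 15.0% of all genes, and 6 were lower (DBP, TEF, PER1, NR1D2, CRY2 and NR1D1), against 16.0%. At 24 h, 3 were higher (CLOCK, PER3 and CRY1), against 21.2%, and 5 were lower (DBP, TEF, NR1D1, CRY2 and PER1), against 21.7%. At 48 h, 4 were higher (PER3, CLOCK, NR1D2 and CRY1), against 20.4%, and 2 were lower (DBP and CRY2), against 20.1%. Medians were -0.40, -0.08 and 0.04, and the median over all genes was -0.03 after 24 h and nearer 0 at the other times. These changes went with base composition. Over 9784 genes, Spearman's rho between the parental change and the GC content of the longest transcript was -0.62, -0.66 and -0.65 after 8, 24 and 48 h, against 0.02, -0.06 and 0.03 in MYC-ER cells, given as a description since genes are not replicates. The 3 parental changes share the parental 0 h libraries. For the difference between the lines, rho was -0.26 at 0 h and -0.01, 0.02 and 0.12 after 8, 24 and 48 h. For the difference of changes it was 0.23, 0.25 and 0.46. CLOCK and CRY1 (37.2% GC each) and NR1D2 (38.5%) are poor in GC, while PER1 (62.7%), NR1D1 (59.5%), DBP (57.8%), CRY2 (57.0%) and TEF (56.7%) are rich in it.

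With each library's GC trend removed, 6 of the 8 parental calls after 8 h held with the same sign, 3 of 8 after 24 h and 4 of 6 after 48 h. DBP, whose change went from -1.38 to -1.20 after 8 h and from -1.21 to -0.95 after 24 h, and CLOCK were called at all 3 times in either analysis. PER3 was called after 24 h (0.63) and 48 h (0.84) in both. Parental PER1 after 24 h turned from -0.26 to 0.11 (adjusted p 0.133), NR1D1 went from -0.36 to -0.06 and CRY2 from -0.28 to -0.05. In MYC-ER cells the same step kept all 8 calls after 8 h, all 9 after 24 h and 5 of 6 after 48 h. A fit of only the 2 parental groups compared called 4, 5 and 3 members after 8, 24 and 48 h. Over all genes, this kind of fit called 1452, 4923 and 3274 in parental cells. With as few libraries, it called 14851, 14283 and 12084 in MYC-ER cells. The cause of this difference was not tested.

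**Figure D4:**
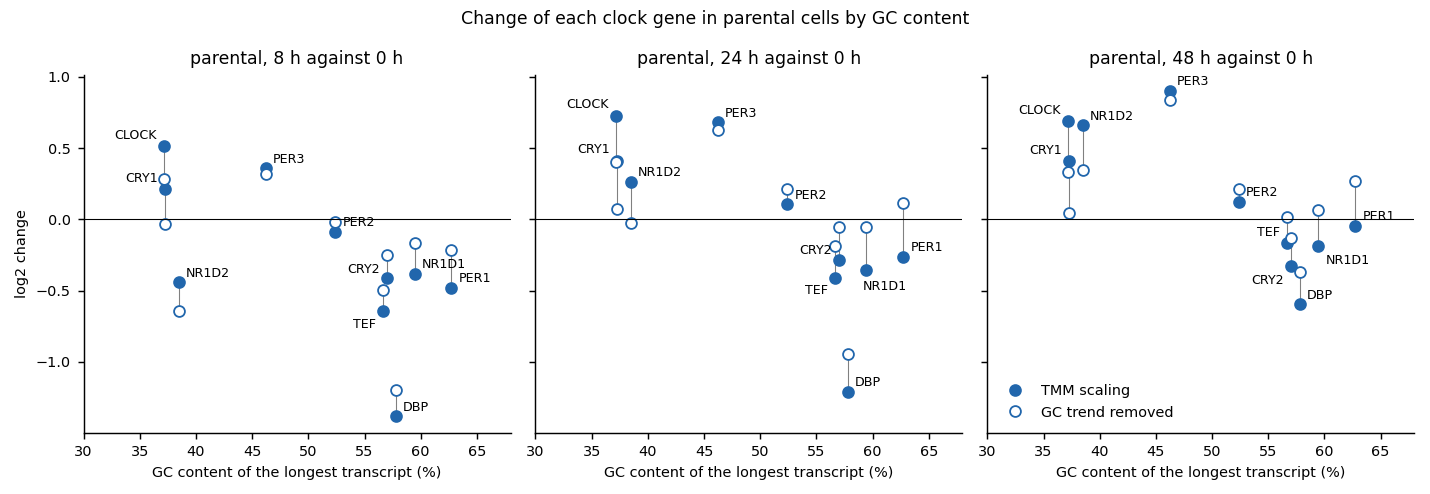
Log2 change of each clock gene in parental cells after 8, 24 and 48 h against 0 h (panels) by the GC content of its longest transcript (%). Filled points use TMM scaling and open points have each library's GC trend removed, joined by a line for each gene. Genes poor in GC moved down and genes rich in GC moved up when the trend was removed. Among the open points, DBP was the lowest and PER3 the highest in each panel.

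Single libraries bore on several values that lie near the threshold. Without parental 0 h replicate 2, parental PER2 was called higher after 24 h (0.22, adjusted p 0.0453) and 48 h (0.24, adjusted p 0.0313), PER3 after 8 h (0.51, adjusted p 0.00847) and NR1D1 lower after 48 h (-0.25, adjusted p 0.0167). PER3 was also called after 8 h without parental 8 h replicate 1 (0.55, adjusted p 0.00572). With all libraries these 4 changes were 0.11, 0.12, 0.36 and -0.19, and none was called. DESeq2 called PER3 after 8 h (0.37, adjusted p 0.029) and NR1D1 after 48 h (-0.19, adjusted p 0.0477), and upper-quartile scaling called NR1D1 (-0.23, adjusted p 0.0271) and TEF (-0.21, adjusted p 0.0491) lower after 48 h. Without parental 0 h replicate 2 the level of CLOCK before 4-OHT was also called higher in the MYC-ER line (0.47, adjusted p 1.71e-05), and without parental 0 h replicate 3 so was that of PER1 (0.19, adjusted p 0.0157).

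The lines were compared at each time. Before 4-OHT, 5 members were higher in MYC-ER than in parental cells, against 31.6% of all genes, and 1 was lower, against 32.7%. The higher ones were NR1D2 (2.57), PER3 (1.75, SE 0.14), DBP (1.13, SE 0.12), TEF (0.97, SE 0.09) and CRY2 (0.45, SE 0.07), and the lower one was CRY1 (-0.51, SE 0.08). PER1 (0.13, adjusted p 0.0953) was called higher as well under library size alone (0.17, adjusted p 0.0141), upper-quartile scaling (0.18, adjusted p 0.0184) and a filter that asks for 10 counts in each of the libraries (0.14, adjusted p 0.0478), and was 0.38 (adjusted p 3.98e-06) with the GC trend removed. CLOCK (0.24, adjusted p 0.0759) was called under upper-quartile scaling (0.30, adjusted p 0.016) and that filter (0.25, adjusted p 0.0487). With the GC trend removed the difference of CLOCK was -0.01 (adjusted p 0.868). At 8 h, 9 members were higher, against 23.1% of all genes, and 0 were lower, against 25.5%. CLOCK was the exception (0.17, SE 0.11, adjusted p 0.234), and it too was called with the GC trend removed (0.23, adjusted p 0.00618) or in a fit of only the groups compared (0.17, adjusted p 0.0263). With all 10 changes above 0, none was lower at an unadjusted p under 0.05 either, and DESeq2 also called 0 lower. The median was 1.00 beside -0.05 over all genes. At 24 h, 5 were higher (DBP, PER3, NR1D2, NR1D1 and TEF), against 23.5%, and 3 were lower (PER2, CRY1 and CLOCK), against 25.8%. At 48 h, 7 were higher (those 5 with CRY2 and PER1), against 27.3%, and 2 were lower (CRY1 and CLOCK), against 29.4%. The PER1 call after 48 h (0.17, SE 0.07, adjusted p 0.0328) did not pass without parental 48 h replicate 1 (0.10, adjusted p 0.205), without any 1 of the 3 MYC-ER 48 h libraries (0.16 to 0.17, adjusted p 0.0619 to 0.0874), without a filter on low counts, or with the GC trend removed (0.03, adjusted p 0.622). CLOCK after 24 h (-0.35, SE 0.11, adjusted p 0.0135) did not pass without MYC-ER 24 h replicate 2 (-0.31, adjusted p 0.0597) or parental 24 h replicate 3 (-0.32, adjusted p 0.0526), under library size alone (-0.23, adjusted p 0.145) or under upper-quartile scaling (-0.25, adjusted p 0.0506). The same 2 scalings called PER1 higher after 24 h (0.22, adjusted p 0.00336, and 0.19, adjusted p 0.0185) and PER2 higher after 48 h (0.31 under each), where the reported values were 0.09 and 0.17. PER2 after 48 h was also called under the filter of 10 counts (0.21, adjusted p 0.0487) and with only the groups compared (0.19, adjusted p 0.042). The treated comparisons and the changes share libraries, and so do the 3 changes within a line, which share the 0 h group.

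The test of whether a change differed between the lines called 8 members after 8 h, 7 with a more positive change in MYC-ER cells, against 27.3% of all genes, and 1 (NR1D2) with a more negative one, against 27.8%. At 24 h 2 were more positive (NR1D1 and DBP), against 27.7%, and 4 more negative (NR1D2, PER2, CLOCK and CRY2), against 26.8%. At 48 h 2 were more positive (DBP and NR1D1), against 23.6%, and 3 more negative (NR1D2, CLOCK and CRY1), against 21.4%. NR1D1 and NR1D2 were called at all 3 times, with opposite signs. With the GC trend removed all 19 calls held and others joined them, CLOCK after 8 h, PER1 (-0.31, adjusted p 0.00192), CRY1 (0.39, adjusted p 0.00041) and TEF (-0.32, adjusted p 0.0361) after 24 h, and PER1 (-0.34, adjusted p 0.00128) and CRY2 (-0.24, adjusted p 0.0483) after 48 h. That made 8 more positive and 1 more negative after 8 h, 3 and 6 after 24 h, and 2 and 5 after 48 h.

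Set on 1 scale of CPM per kilobase of exon, PER1 was the most abundant member in every group, at 30.03 ± 0.434 (SD, n = 3) before 4-OHT in the MYC-ER line and 28.1 ± 0.985 after 8 h. NR1D1 went from the fourth rank (4.05 ± 0.159) to the second (14.8 ± 0.193) between those times, and CRY1 from the eighth (1.97 ± 0.111) to the third (6.90 ± 0.136). NR1D2 went from the second rank (8.05 ± 0.224) to the eighth (3.26 ± 0.256). PER3 ranked lowest in MYC-ER cells at 0 h (0.613 ± 0.0364) and DBP after 8 h (0.397 ± 0.0180). These ranks depend on the merged length of all annotated exons, 6544 bases for DBP, which can exceed that of the transcripts made. Between highest and lowest group mean, the span was 8.25-fold for DBP, 8.05-fold for NR1D2, 4.42-fold for NR1D1, 4.33-fold for TEF, 4.31-fold for CRY1, 2.73-fold for PER2, 1.81-fold for CRY2 and 1.66-fold for CLOCK.

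Other clock genes were looked at as a list of 25, of which 23 were tested (RORB and FBXL21P were not). In MYC-ER cells, 11 were higher and 11 lower after 8 h (32.2% and 35.4% of all genes tested), 5 and 12 after 24 h (30.4% and 31.2%), and 7 and 9 after 48 h (23.4% and 20.7%). In parental cells, 6 were higher and 4 lower after 8 h (15.0% and 16.0% of all genes), 9 and 4 after 24 h (21.2% and 21.7%), and 9 and 4 after 48 h (20.4% and 20.1%). Among the partners of CLOCK, BMAL1 rose in MYC-ER cells from 21.4 ± 1.07 CPM at 0 h to 37.0 ± 1.15 after 8 h (0.79, SE 0.06) and stood at 18.5 and 23.1 CPM afterwards. It was lower than in parental cells (73.7 to 95.0 CPM) at every time, by 1.79 at 0 h (-1.79, SE 0.06). NPAS2, which can take the place of CLOCK, fell at all 3 times (-0.95, -1.92 and -1.47), and BMAL2 rose at all 3 (2.23, 1.36 and 1.37). BMAL2 rose at all 3 times in parental cells too (0.78, 1.11 and 0.48). The E-box repressor BHLHE40 rose by 3.17 (SE 0.09) after 8 h, from 25.3 ± 1.16 to 228 ± 23.2 CPM, and by 1.40 and 1.55 later. In parental cells it also rose at all 3 times (0.83, 0.72 and 0.61), from 108 ± 4.83 to 192 ± 15.8 CPM after 8 h. CIART, another repressor of the loop, fell at all 3 times (-0.43, -0.84 and -0.71).

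The list also holds regulators that meet the members on their sites or proteins. NFIL3, which binds D-boxes as a repressor, fell by 1.89 (SE 0.06) after 8 h and by 1.72 after 24 h in MYC-ER cells, from 85.9 ± 3.04 CPM to 23.1 ± 0.773 and 26.1 ± 0.254. HLF, a D-box activator related to DBP and TEF, stood above the parental level in MYC-ER cells by 3.92 to 4.29 at every time. The kinase genes CSNK1D (-0.45, -1.29 and -0.52) and CSNK1A1 (-0.41, -0.61 and -0.51), and BTRC (-0.37, -0.57 and -0.46), whose protein marks phosphorylated PER for breakdown, were lower at all 3 times in MYC-ER cells. Parental CSNK1D was lower at all 3 times as well (-0.17, -0.24 and -0.11), and no parental change of CSNK1A1 or BTRC was called. TIMELESS, which also acts in DNA replication, rose most after 24 h (2.09, SE 0.06), between 0.22 after 8 h and 0.41 after 48 h.

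**Figure D5:**
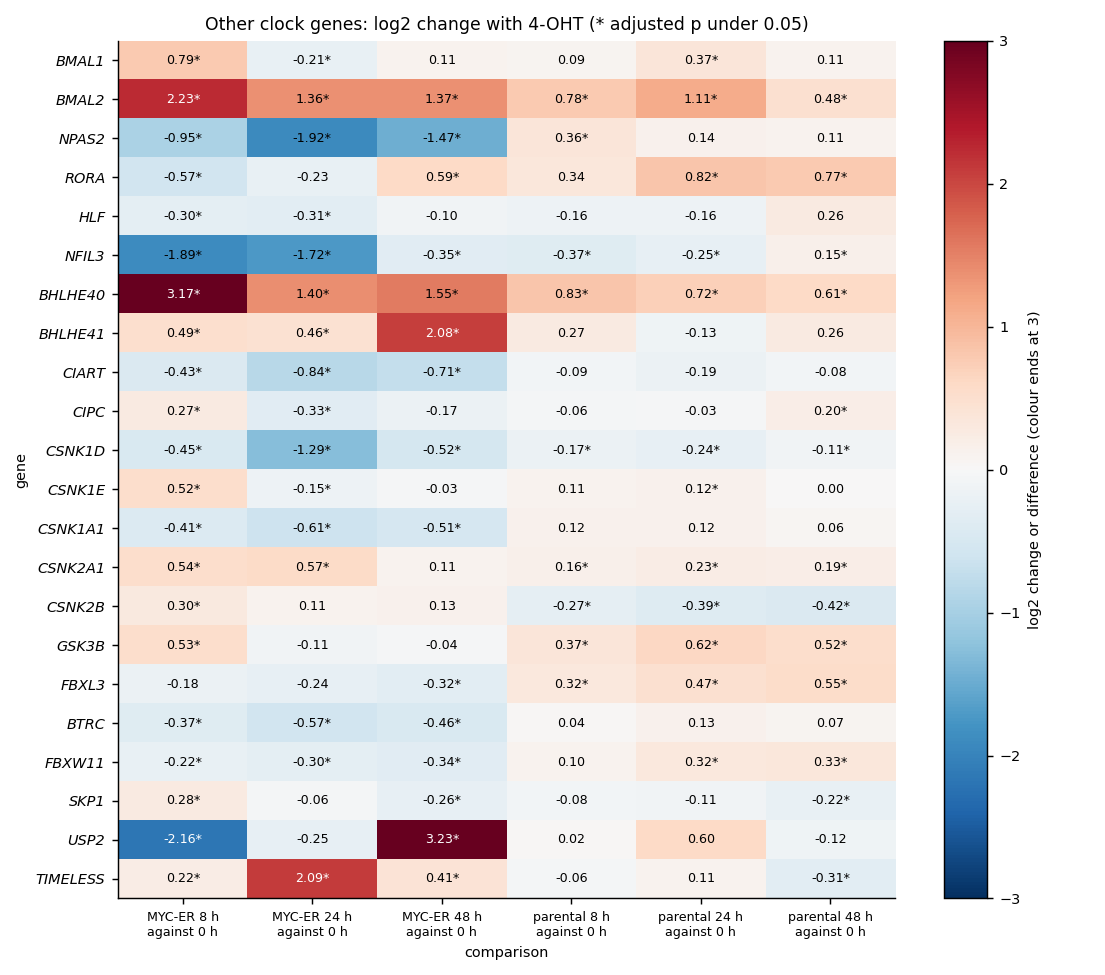
Log2 change with 4-OHT of 22 of the 23 other clock genes tested (rows) in each line after 8, 24 and 48 h against 0 h (columns), with asterisks at an adjusted p under 0.05. Red is higher and blue lower, and the colour ends at 3. In all 3 MYC-ER columns BMAL2, BHLHE40, BHLHE41 and TIMELESS are red with asterisks. NPAS2, NFIL3, CIART, CSNK1D, CSNK1A1, BTRC and FBXW11 are blue with asterisks there, while the parental columns are paler.

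Across the 24 libraries, the pairs of members with the highest correlation of log2 CPM were PER3 with NR1D1 (Pearson's r 0.87) and NR1D2 with DBP (0.85), and those with the lowest were CRY1 with DBP (-0.72) and DBP with CLOCK (-0.61). Among 10567 other genes, the ones most like each member by the same measure were MXD4 (0.92) for PER1, ABR (0.93) for PER2, PXK (0.98) for PER3, NAV1 (0.99) for CRY1 and PACS2 (0.94) for CRY2. They were THEM4 (0.95) for NR1D1, FAM13A (0.99) for NR1D2, SLC25A23 (0.98) for DBP, CIPC (0.95) for TEF and SEC24A (0.98) for CLOCK. CIPC, a repressor of CLOCK, is itself in the list of other clock genes and was the nearest to TEF. The libraries share their groups, so these values describe how group means line up and carry no test.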

How the data were processed

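The values analysed are raw counts per gene as deposited, whole numbers for each of 24 libraries. Per the submitters' processing notes the tools were Trimmomatic 0.39, STAR and StringTie 2.1.3b with the build GRCh38, given without roles or order, so a count may be an estimate from coverage. Whether counting used strand is not given in the sources used here.

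Symbols, exon lengths, GC content (98.0% of tested genes) and positions came from GENCODE annotation of GRCh38, and 60340 rows matched a symbol. The filter filterByExpr left 22158 genes. TMM scaling and edgeR 4.0.16 under R 4.3.3 were used, with a mean for each of the 8 groups in a single model of all libraries. Contrasts were tested two-sided with the quasi-likelihood F test, and p-values were adjusted by Benjamini-Hochberg within a contrast. The procedure was tested on simulated counts. The common biological coefficient of variation was 0.151. Log2 CPM used a prior count of 2, and genes compared with the members reached a mean of at least 10 CPM in their highest group.

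All 10 members are named, and the other clock genes come from 1 list, of which 1 gene is counted but its values are not reported here. Members and lists were chosen with earlier results of these data known. The alternatives were other scalings (library size alone, upper quartile or the size factors of DESeq2), no filter, at least 10 counts in every library, the Wald test of DESeq2 1.42.0, a model of the compared groups alone, a replicate block, removal of each library's GC trend (lowess, span 0.3), and leaving out each library.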

Additional observations from a re-analysis of the deposited data

Results flagged for a closer look

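The change with 4-OHT differed between the lines for 19 of the 30 member values tested, where a value is how far the change in MYC-ER cells exceeded that in parental cells (log2, edgeR's quasi-likelihood test, adjusted over all genes). After 8 h the values were 2.25 (SE 0.11) for NR1D1, 1.60 (SE 0.11) for CRY1, 1.31 (SE 0.20) for PER3, 1.15 (SE 0.12) for TEF, 0.90 (SE 0.13) for PER2, 0.38 (SE 0.09) for PER1, 0.36 (SE 0.09) for CRY2 and -0.87 (SE 0.20) for NR1D2. After 24 h they were 1.42 (SE 0.11) for NR1D1, 0.83 (SE 0.18) for DBP, -0.54 (SE 0.09) for CRY2, -0.59 (SE 0.16) for CLOCK, -0.74 (SE 0.13) for PER2 and -0.85 (SE 0.20) for NR1D2. After 48 h they were 1.13 (SE 0.17) for DBP, 0.78 (SE 0.11) for NR1D1, -0.71 (SE 0.11) for CRY1, -0.74 (SE 0.16) for CLOCK and -0.81 (SE 0.20) for NR1D2. Of all genes tested, the same test called 27.3% more positive and 27.8% more negative after 8 h. The shares were 27.7% and 26.8% after 24 h, and 23.6% and 21.4% after 48 h. With the GC trend removed all 19 were still called, and 6 moved by over 1.5 times, PER1 to 0.20 after 8 h, CLOCK to -0.32 after 24 h, and CRY1 to -0.37, NR1D1 to 0.44, CLOCK to -0.42 and NR1D2 to -0.52 after 48 h. The change itself was called with opposite signs in the lines for NR1D1 after 8 and 24 h, TEF after 8 h (0.50 in MYC-ER and -0.65 in parental cells), and CRY1 (-0.30 and 0.41) and DBP (0.54 and -0.60) after 48 h. With the GC trend removed, TEF (0.58 and -0.49) and DBP (0.44 and -0.37) kept both calls, while the parental changes of NR1D1 (-0.17 and -0.06) and CRY1 (0.04) were not called.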

How the results depend on the processing

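Of the 115 called member changes, 92 kept their direction and their call under every alternative and every left-out library, and 23 lost the call or turned under at least 1. The number of members called left its reported value by more than 1.5 times in the parental line alone. A fit of only the groups compared called 4 after 8 h, 5 after 24 h and 3 after 48 h (reported 8, 8 and 6), and removal of the GC trend called 3 after 24 h. Leaving out 1 library moved no count that far. Among the 1350 values under other settings, 1279 kept their side of the threshold and direction, 34 lost the call, 29 gained it and 8 turned, and turns between 2 uncalled values were counted as kept. Under library size alone PER1 turned in MYC-ER cells after 48 h (0.16) and from 8 to 24 h (0.0011). With the GC trend removed, parental CRY1 after 8 h was -0.035, parental PER1 was 0.11 after 24 h and 0.27 after 48 h, and the difference of changes was 0.25 for CLOCK after 8 h and -0.34 for PER1 and -0.24 for CRY2 after 48 h. Among 1080 values with a library left out, 1047 were kept, 23 lost and 10 gained the call. Library size alone moved the median of all genes by up to 0.21 (24 h against 8 h), and the share of calls that were higher from 53.0% to 73.8% in MYC-ER cells after 48 h and from 51.2% to 67.8% from 8 to 24 h. Between the lines that share went from 47.6% to 60.7% after 24 h and from 48.2% to 59.8% after 48 h, and for the difference of changes after 48 h from 52.5% to 63.5%. Upper-quartile scaling gave 58.4% and 59.7% between the lines. The causes of these shifts were not tested.

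Replicate numbers did not pair the libraries. Deviations of libraries with the same number correlated between -0.32 and 0.41 over 10795 genes, all above 0.1 for 1 of 28 pairs of groups, and a library correlated best with its own number in 26 of 84 cases. With the replicate block, the members called in MYC-ER cells were again 8, 9 and 6 after 8, 24 and 48 h, and in parental cells 8, 8 and 6, and no member gained or lost a call.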

Other observations

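USP2, whose protein removes ubiquitin from clock proteins, was low in most groups and stood out in 1. It averaged 0.229 ± 0.0479 CPM (SD, n = 3) in the MYC-ER line before 4-OHT and 2.15 ± 0.321 after 48 h (3.23, SE 0.49), against 0.12 to 0.195 CPM in the parental groups. BHLHE41, an E-box repressor related to BHLHE40, was also highest there, with 18.3 ± 0.15 CPM against 4.35 ± 0.0726 before 4-OHT (2.08, SE 0.12).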
